A study of Homo sapiens with 4 samples.

Results

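The RBM and SRSF genes code for RNA-binding proteins that act in splicing and other steps of RNA processing. The members were taken from ChIP-seq peak lists by gene symbol. The symbol patterns for RBM, RBMS and RBMX took 43 symbols, and the pattern for SRSF took 0, because the lists name these genes by the older SFRS symbols. The genes were therefore also matched through their transcript identifiers to current RefSeq names, which added 12 SRSF genes and RBM48, listed as C7orf64. The result was 56 genes, 44 RBM and 12 SRSF, of 18576 symbols in the 4 lists. RBM9 and RBM16 of the lists are RBFOX2 and SCAF8 in current names, which are used below.

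WDR5 and H3K4me3, trimethylation of lysine 4 of histone H3, were measured in the lines RS4;11 and THP-1. RS4;11 is a B-cell precursor acute lymphoblastic leukemia line and THP-1 a monocytic acute myeloid leukemia line. Both carry rearrangements of the MLL gene, and the labels name no treatment. There was 1 sample for each antibody in each line, with no replicates, so every difference between lines is a description without a test. The labels of the THP-1 WDR5 sample and of the RS4;11 H3K4me3 sample name the other type of leukemia, and the samples were grouped by cell line and antibody.

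RBM proteins carry the RNA recognition motif, a fold that holds single-stranded RNA. SR proteins, the products of the SRSF genes, add a tail rich in arginine and serine whose phosphorylation sets where they are in the cell and what they bind. They mark exons and draw the spliceosome to them. RBM22 belongs to the core of the activated spliceosome. WDR5 is a subunit of the MLL and SET1 methyltransferase complexes, which write H3K4me3, a mark found at the starts of active genes.

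The lists give positions and widths of peaks, and whether each peak lies within 20 kb of a transcript or touches its exons or introns. They hold no read counts or scores, so depth and peak strength are unknown. RS4;11 cells had 703 WDR5 and 24212 H3K4me3 peaks, and THP-1 cells 225 and 26523. The widest H3K4me3 peaks were 4478 bp in RS4;11 and 4446 bp in THP-1 cells. Of 12 commonly used reference genes, a list drawn up after the data were seen, 8 had no peak at any annotated start in either line, ACTB and GAPDH among them. A promoter without a listed peak is therefore not shown to lack H3K4me3. Of 9 B-lineage markers, 5 had a promoter peak in RS4;11 and 4 in THP-1 cells. Of 9 monocytic and myeloid markers, 4 and 6 did. Over all protein-coding genes the shares were 49.2% in RS4;11 and 55.3% in THP-1 cells. CD79A and CD79B had a promoter peak in RS4;11 cells only, and CSF3R and ITGAM in THP-1 cells only. CD79B also had a THP-1 peak of 946 bp at another start. PAX5 and EBF1 went against the labels, with a promoter peak in THP-1 cells only.

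WDR5 peaks were listed at 7 of the 56 genes (12.5%) in RS4;11 cells and at 0 in THP-1 cells. Of all symbols in the lists, 4.70% had a WDR5 peak in RS4;11 and 1.70% in THP-1 cells. The 7 genes were RBM22, RBM25, RBM27, RBMS3, RBMXL1, SRSF4 and SRSF8, with 1 peak each. With the gene symbols as written in the lists alone there were 5. Only RBM22 and RBMXL1 had the peak in the promoter window, which ran from 2000 bp before the 5′-most base of a gene to 500 bp past it. Such a peak was listed for 0.223% of protein-coding genes in RS4;11 cells and for 0.0745% in THP-1 cells. The peaks of 3 genes, RBM22, RBMXL1 and RBMS3, shared bases with H3K4me3 in that line, against 58 of all 703 WDR5 peaks.

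The sequences just upstream of RBM22, at the WDR5 peak before an inner start of RBMS3 and in an intron of SRSF4 are shown because these sites were unlike. They were read from GRCh37, which has the coordinates of hg19, on the strand of each gene. The first is the 250 bases just upstream of RBM22, chr5:150080640-150080889 on the minus strand, with the 66 bases that the WDR5 peak covers in capitals.
RBM22: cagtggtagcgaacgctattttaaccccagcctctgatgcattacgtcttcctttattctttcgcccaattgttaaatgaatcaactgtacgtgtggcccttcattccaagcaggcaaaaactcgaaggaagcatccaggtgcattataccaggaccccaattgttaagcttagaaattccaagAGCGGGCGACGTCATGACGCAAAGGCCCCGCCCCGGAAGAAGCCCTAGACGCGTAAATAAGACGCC

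The next 2 are WDR5 peaks, for SRSF4 the central 300 bases, with every CG dinucleotide in capitals. They are RBMS3 at chr3:29321278-29321544 (plus strand) and SRSF4 at chr1:29477334-29477633 (minus strand).
RBMS3: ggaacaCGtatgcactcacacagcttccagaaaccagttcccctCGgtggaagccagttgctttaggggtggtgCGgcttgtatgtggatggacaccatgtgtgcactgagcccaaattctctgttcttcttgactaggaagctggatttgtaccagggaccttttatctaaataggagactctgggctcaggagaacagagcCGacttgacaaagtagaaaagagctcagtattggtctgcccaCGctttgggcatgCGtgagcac
SRSF4: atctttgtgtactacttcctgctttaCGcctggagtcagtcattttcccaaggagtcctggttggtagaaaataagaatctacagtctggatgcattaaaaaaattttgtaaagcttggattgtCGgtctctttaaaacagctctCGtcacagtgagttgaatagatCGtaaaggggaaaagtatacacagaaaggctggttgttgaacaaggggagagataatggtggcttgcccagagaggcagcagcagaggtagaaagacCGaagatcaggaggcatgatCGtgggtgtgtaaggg

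The WDR5 peak at RBM22 was 436 bp wide (chr5:150080270-150080705) and held the 5′ end of the gene, and the lists place it upstream, in an exon and in an intron of the RBM22 transcript. It was also listed downstream of DCTN4, a dynactin subunit. In RS4;11 cells 13 protein-coding genes had their 5′ end inside a WDR5 peak, and in THP-1 cells 3. The whole WDR5 peak lay inside the RS4;11 H3K4me3 peak of 2626 bp (chr5:150079034-150081659). That H3K4me3 peak reached 1020 bp upstream and 1605 bp downstream of the gene start. The THP-1 H3K4me3 peak at the same place was 2747 bp wide (chr5:150078842-150081588), reaching 949 bp upstream and 1797 bp downstream. Its upstream edge differed from that of RS4;11 cells by 71 bp and its downstream edge by 192 bp. The nearest THP-1 WDR5 peak was 974188 bp away. H3K4me3 at RBM22 was thus listed with nearly the same extent in both lines, and WDR5 in 1 of them.

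The 66 bases in capitals in the RBM22 sequence hold CGGAAG, the core of ETS factor sites, 33 to 28 bases upstream of the gene start, and GGGCGG, the GC box, on the other strand 39 to 34 bases upstream. The pair are adjacent and do not overlap. In the 250 bases, CCAAT starts 185 and 93 bases upstream, outside the capitals, and the WDR5 peak also holds it outside the bases shown. No CACGTG (E-box) or GCATGC (part of the NRF1 site) was found there on either strand. The RBM22 peak had a GC content of 67.0% and a CpG observed to expected ratio of 0.80. Only 7 of the 699 RS4;11 WDR5 peaks on assembled chromosomes had a higher GC content, and 9 a higher ratio. The medians over these peaks were 40.3% and 0.18, and over the 58 that overlapped an H3K4me3 peak 53.0% and 0.36.

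**Figure D1:**
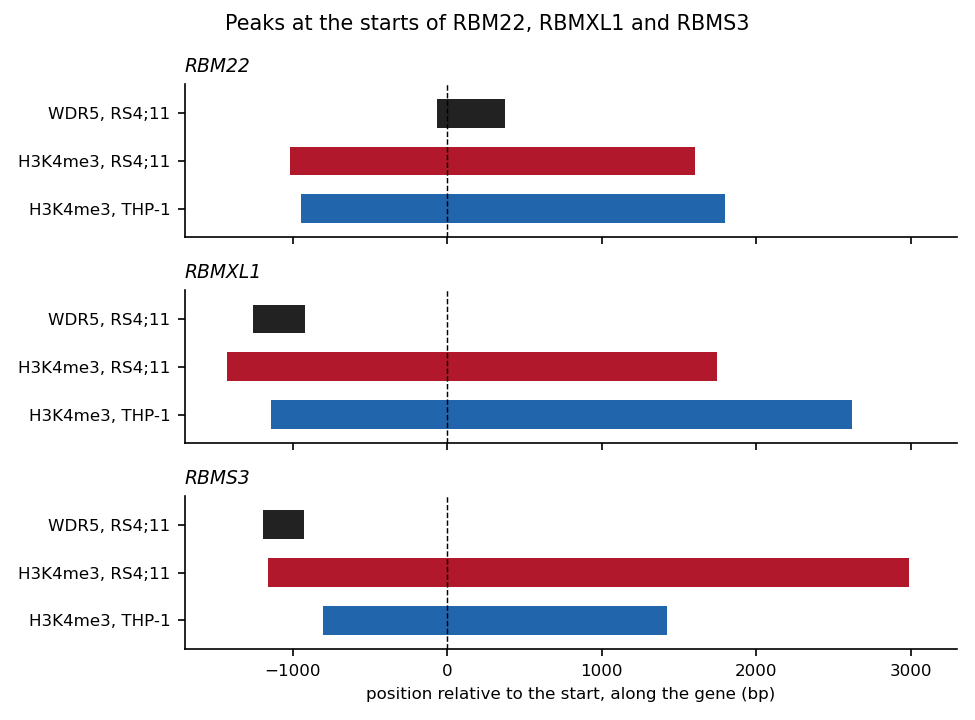
Peaks at RBM22, RBMXL1 and RBMS3, by position in bp along the gene from its 5′ end (for RBMS3, from the transcript start nearest to the WDR5 peak). The black WDR5 bar of RS4;11 cells lies across the start of RBM22 and upstream of the start of the other two, and the H3K4me3 bars of RS4;11 (red) and THP-1 (blue) cells span each start.

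RBMXL1, an intronless copy of the X-linked splicing regulator RBMX, had a WDR5 peak of 339 bp whose center lay 1091 bp upstream of the gene start. It was listed upstream of CCBL2 (KYAT3), which starts under the same H3K4me3 peak, and downstream of GBP3. The RS4;11 H3K4me3 peak of 3175 bp covered all of it. In THP-1 cells the H3K4me3 peak was 3762 bp wide, and it overlapped the same WDR5 site while ending 285 bp closer to the gene start on that side. Its GC content was 40.4%, near the median of all RS4;11 WDR5 peaks.

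RBMS3, a binder of single-stranded DNA and RNA, had the narrowest of the 7 peaks, 267 bp. Its center lay 1062 bp upstream of the nearest annotated transcript start and 705129 bp downstream of the outermost one. The RS4;11 H3K4me3 peak there was 4149 bp wide and shared 231 bp, or 86.5%, of the WDR5 peak. The THP-1 H3K4me3 peak was 2224 bp wide and stopped 123 bp short of the WDR5 site. The WDR5 sequence also overlaps an exon of RBMS3-AS3, an antisense long noncoding RNA.

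The other 4 WDR5 peaks lay outside the promoter window and overlapped no H3K4me3 peak of either line. At RBM25, whose product regulates the choice of splice sites, the peak of 423 bp (chr14:73507127-73507549) had its center 17902 bp upstream of the gene start and was also listed upstream of ZFYVE1. The nearest H3K4me3 peak was 12493 bp away in RS4;11 cells and 2231 bp away in THP-1 cells. At RBM27 the peak of 392 bp (chr5:145680709-145681100) lay downstream of the gene as the lists annotate it, with the nearest H3K4me3 peak 95416 bp away in RS4;11 and 42948 bp away in THP-1 cells. At SRSF4 the peak of 357 bp (chr1:29477306-29477662) lay in an intron, 30928 bp downstream of the start. At SRSF8, an SR gene that arose as a copy of SRSF2, the peak of 429 bp (chr11:94784972-94785400) lay 14897 bp upstream of the start. RBM27 and SRSF8 had the lowest GC contents, 34.2% and 34.7%, with CpG ratios of 0.09 and 0.15. RBM25 had 49.4% and 0.35, and SRSF4 45.4% and 0.42. All 4 of these genes had an H3K4me3 peak at their own promoter in both lines, of 2933 and 3339 bp at RBM25, 3473 and 3609 bp at RBM27, 3759 and 4022 bp at SRSF4, and 4250 and 3770 bp at SRSF8 (RS4;11 first).

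**Figure D2:**
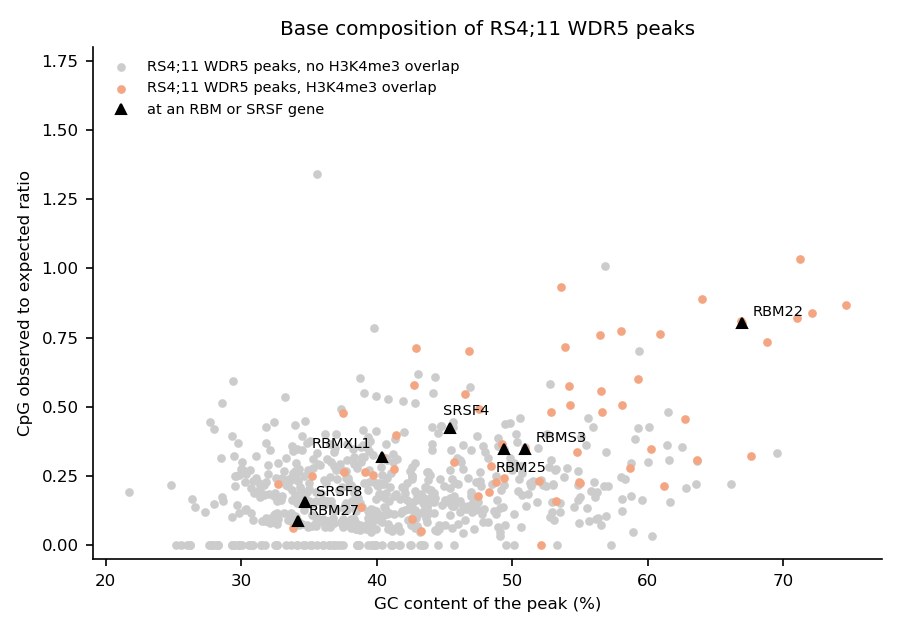
GC content in percent against the CpG observed to expected ratio of each of the 699 RS4;11 WDR5 peaks on assembled chromosomes, split by overlap with an H3K4me3 peak, with the 7 peaks at RBM and SRSF genes as triangles. RBM22 stands at 67.0% and 0.80, and the other 6 lie between 34.2% and 50.9% GC.

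An H3K4me3 peak lay in the promoter window of 43 of the 56 genes (76.8%) in each line, with 41 in both. When the center of the peak had to lie in the window, the counts were 22 in each line and 17 in both. For that center rule no share over all protein-coding genes was computed. Counted by any shared base, as for the 43 genes, the shares over all protein-coding genes were 49.2%, 55.3% and 43.4%. Every member had to be listed with some peak to be found, and among protein-coding genes listed in any of the 4 files the shares were 56.6% and 63.8%. The equal counts of 43 rest on 41 shared genes and 2 more in each line. Of all 20136 protein-coding genes, 1152 had a promoter peak in RS4;11 cells only and 2397 in THP-1 cells only. RBM12 and RBM12B had a promoter peak in RS4;11 cells only, of 4204 and 4040 bp. RBM11, a splicing regulator known from brain and testis, had one in THP-1 cells only, of 1325 bp. RBM47, a cofactor of cytidine editing of RNA, had one of 1792 bp in THP-1 cells. In RS4;11 cells its nearest peak, 986 bp wide, began inside the gene beyond the window. With the start of every annotated transcript the count was 45 of 56 in each line, against 56.6% and 64.0% of all protein-coding genes.

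The 2 genes marked in RS4;11 cells only had peaks near the upper end of the widths in the files. Of the 465 RS4;11 peaks of 4000 bp or more, 154 (33.1%) had no THP-1 peak at the same place, against 13.0% of peaks of 3000 to 3500 bp. In THP-1 cells 76 of 277 peaks of 4000 bp or more (27.4%) had no RS4;11 peak, against 13.9%. The part of this in the result for RBM12 and RBM12B was not tested.

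**Figure D3:**
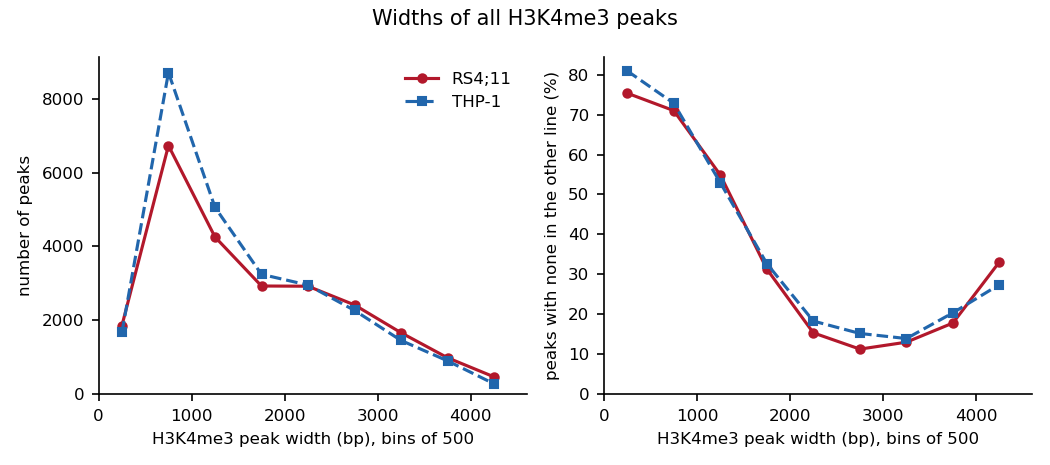
Number of H3K4me3 peaks (left) and percent of them with no overlapping peak in the other line (right) by width in bins of 500 bp. The percent falls from 75.4% and 81.0% in the narrowest bin to 11.3% and 13.9% near 3000 bp and is 33.1% and 27.4% in the widest bin (RS4;11 and THP-1).

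In 11 of the 56 genes neither line had a peak in the window, against 7842 of all 20136 protein-coding genes. The 11 were RBM4, RBM10, RBM15, RBM26, RBM39, RBM46, RBMS3, SRSF1, SRSF2, SRSF3 and SRSF10. RBM15 belongs to the complex that writes N6-methyladenosine on RNA, RBM10 and RBM39 regulate splicing, and SRSF1, SRSF2 and SRSF3 are founding members of the SR family. RBMS3 had peaks at inner starts in both lines, described above, and SRSF10 had 2, of 419 and 314 bp, at other starts in THP-1 cells. That left 9 genes without a peak at any start in either line, against 6142 of all protein-coding genes. In the upstream 250 bases, the CpG observed to expected ratios of SRSF1, SRSF2 and SRSF3 were 1.12, 1.14 and 1.07. The median over the 56 genes was 0.78. Among the rest of the 11 genes without a peak in the window, the ratio ran from 0.11 at RBMS3 to 0.99 at RBM15. A link between this ratio and the lack of a listed peak was not tested. All 12 SRSF genes were listed with at least 1 H3K4me3 peak within 20 kb in each line, but members had to be listed with some peak. Of all 20136 protein-coding genes, 14534 were so listed in RS4;11 and 15518 in THP-1 cells. At SRSF1, SRSF2 and SRSF3 every listed peak lay outside the gene. For SRSF10 the RS4;11 lines all named an unplaced contig of chromosome 1, which carries a copy of that region, so its peaks cannot be assigned to a locus with certainty.

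Among genes with a promoter peak, the widest one had a median width of 2901 bp in RS4;11 cells (n = 43, 794 to 4250 bp) and 2630 bp in THP-1 cells (n = 43, 901 to 4063 bp). Over all protein-coding genes with a promoter peak the medians were 2578 and 2355.5 bp. The SRSF genes stood above the RBM genes in both lines, with medians of 3452 against 2646 bp in RS4;11 cells and 3399 against 2292 bp in THP-1 cells, from 8 and 35 genes. These differences were not tested. The SRSF widths include those of SRSF5 and SRSF9 at their outermost starts, at peaks that the lists do not assign to these genes.

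The SRSF widths differed between the lines by a median of 147.5 bp over 8 genes. SRSF4 measured 3759 bp in RS4;11 and 4022 bp in THP-1 cells. SRSF11, a less typical SR protein, measured 3802 and 3787 bp. SRSF7 measured 3517 and 3111 bp, SRSF9 3387 and 3450 bp, and SRSF6 3168 and 3348 bp. The SRSF9 widths are for its outermost annotated start, at a peak that the lists do not assign to SRSF9. Inside the gene the lists assign it peaks of 3243 and 3216 bp, centered 26572 and 26598 bp from that start. SRSF8 was the widest of all 56 genes in RS4;11 cells. At the narrow end, SRSF12 measured 1314 and 1429 bp. SRSF5 measured 888 and 901 bp at its outermost start, at peaks that the lists do not assign to SRSF5. The peaks that the lists do assign to it lay at an inner start and were wider, 2710 and 2781 bp.

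The widest promoter peaks in RS4;11 cells were those of SRSF8, RBM12, RBM14 (4161 bp), RBM4B (4135 bp) and RBM12B. In THP-1 cells they were those of RBM14 (4063 bp), SRSF4, SRSF11, SRSF8 and RBMXL1. RBM14, a coactivator and paraspeckle protein, was the only RBM gene among the 5 widest in both lines. The narrowest in RS4;11 cells were at RBM20 (794 bp), RBM24 (839 bp), SRSF5, RBMS2 (1294 bp) and SRSF12. In THP-1 cells they were at SRSF5, RBM24 (1203 bp), RBM15B (1278 bp), RBM20 (1288 bp) and RBM11. SRSF5 was ranked by the peak at its outermost start, which the lists do not assign to it. RBM20 and RBM24 regulate splicing in heart and skeletal muscle, and both had narrow peaks in the leukemia lines.

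**Figure D4:**
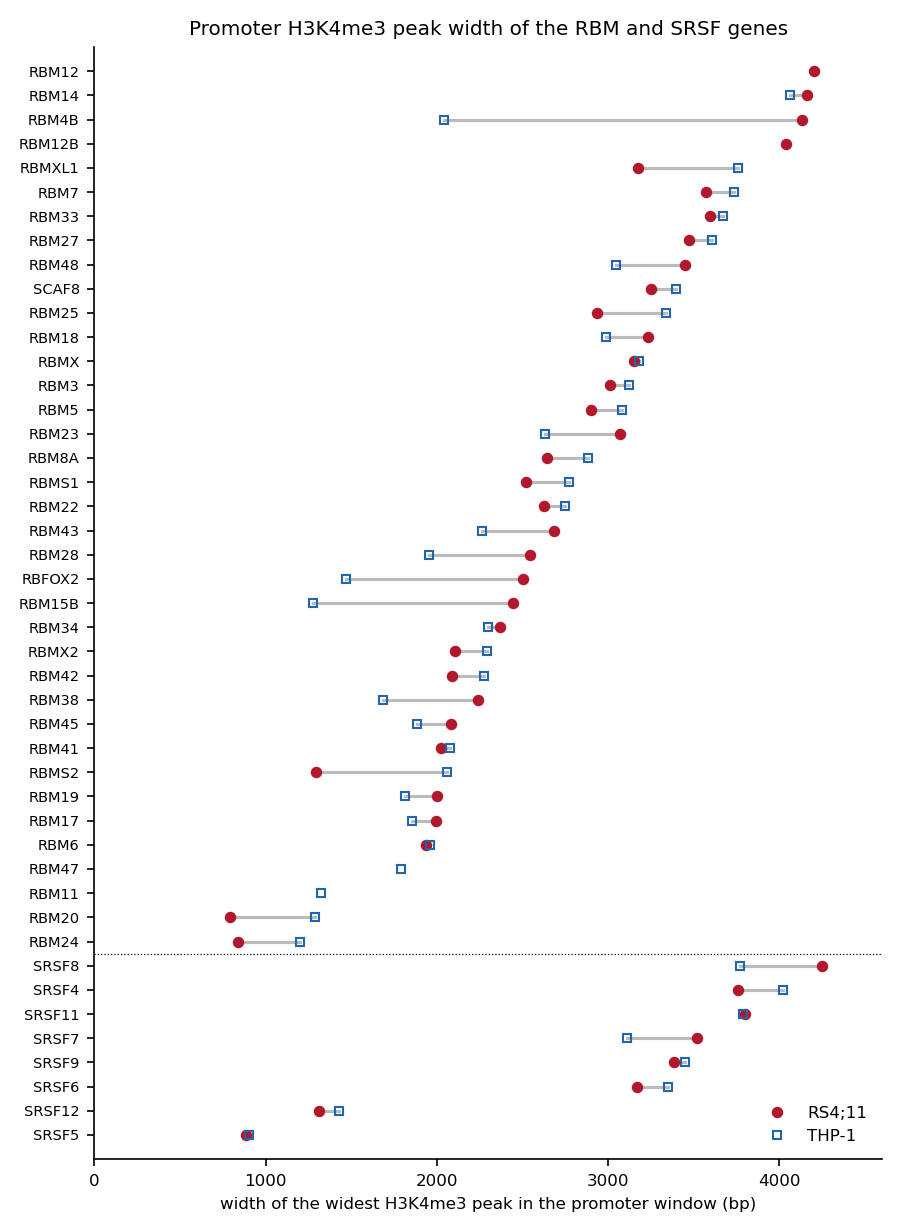
Width in bp of the widest H3K4me3 peak in the promoter window of each RBM gene (top) and SRSF gene (below the dotted line) in RS4;11 (red circles) and THP-1 cells (blue squares), for the 45 genes with such a peak in either line. RBM4B has the longest line between its points, from 2044 to 4135 bp, and RBM12, RBM12B, RBM47 and RBM11 have 1 point each.

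Widths in the lines ran together over the 41 genes with a promoter peak in both, with Pearson's r of 0.84 and Spearman's rho of 0.85 across genes, which are not independent replicates. Without the 2 genes farthest from the median RS4;11 width r was 0.82. Over all 8745 protein-coding genes with a peak in both lines r was 0.64 and rho 0.65. The peak was wider in RS4;11 cells for 17 genes (41.5%) and in THP-1 cells for 24, while over all such protein-coding genes it was wider in RS4;11 cells for 53.6%. The median difference, RS4;11 minus THP-1, was -54 bp for the 41 genes and 39 bp for all. The widths differed by less than 250 bp for 24 of the 41 (58.5%), against 41.8% of all such genes, and by a median of 184 bp against 316 bp.

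The 5 largest differences were at RBM4B, RBM15B, RBFOX2, RBMS2 and RBM28. RBM4B, a paralog of the splicing regulator RBM4, measured 4135 bp in RS4;11 and 2044 bp in THP-1 cells. Its upstream edges differed by 18 bp and its downstream edges by 2073 bp. RBM15B, an m6A writer subunit, measured 2443 and 1278 bp, with edges 31 bp apart upstream and 1196 bp apart downstream. RBFOX2, a splicing regulator that binds UGCAUG, measured 2506 and 1471 bp, with edges 21 and 1056 bp apart. In these 3 genes the peaks began at nearly the same place and ended farther into the gene in RS4;11 cells. RBMS2 went the other way, with 1294 and 2057 bp, and its THP-1 peak reached 671 bp farther into the gene. RBM28, a nucleolar protein of ribosome assembly, measured 2545 and 1954 bp, with edges 219 bp apart upstream and 372 bp downstream. Over the 41 genes the downstream edges differed by a median of 158 bp and the upstream edges by 92 bp, and the downstream difference was the larger one in 27 (65.9%). Over all 8745 protein-coding genes with a peak in both lines these medians were 199 and 158 bp. The downstream difference was the larger one in 56.5% of them.

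The promoter peaks lay mostly downstream of the start. The center of the widest peak was downstream of the 5′ end in 37 of 43 genes in RS4;11 cells (86.0%) and in 35 of 43 in THP-1 cells (81.4%). Over all protein-coding genes with a promoter peak the shares were 75.6% and 75.0%. The median RS4;11 peak of the 41 genes reached 948 bp upstream and 1664 bp downstream, and the median THP-1 peak 949 and 1690 bp. Among these 41 genes the largest reaches into the gene were at SRSF8 (3350 bp in RS4;11 and 3193 bp in THP-1 cells). Their largest reaches upstream in RS4;11 cells were at SRSF9 (2396 bp, from its outermost annotated start) and RBM48 (2375 bp).

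The widest promoter peak covered the 5′ end of another annotated protein-coding gene at 12 genes in RS4;11 cells (27.9%, against 27.6% of all such genes) and at 11 in THP-1 cells (25.6%, against 23.9%). Examples in both lines were RBM18 with MRRF, RBM7 with C11orf71, SRSF7 with GEMIN6, SRSF11 with LRRC40 and RBMXL1 with KYAT3. RBM12 shared its RS4;11 peak with CPNE1. The width at such genes cannot be told apart from that of the neighbor.

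The 56 genes were listed with 111 distinct H3K4me3 peaks in RS4;11 and 133 in THP-1 cells, and 55 were listed in each line. Of 114 gene and peak pairs in RS4;11 cells, 41 lay in the promoter window, 33 elsewhere in the gene, 37 outside it and 3 on another contig. In THP-1 cells these were 41, 48, 46 and 2 of 137. Genes with 2 or more peaks numbered 32 in each line (58.2% of those listed), against 67.5% of listed protein-coding genes in RS4;11 and 70.4% in THP-1 cells. Counting only peaks that overlap a gene or its 5000 bp flanks gave 19 in each line. For that rule no share over all protein-coding genes was computed. The 32 genes were not the same in both lines. RBM27 and SRSF6, for example, had 2 peaks in RS4;11 and 1 in THP-1 cells, and RBM39 and RBM26 had 1 and 2.

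RBM47 had the largest difference in number, with 5 peaks in RS4;11 and 14 in THP-1 cells, all within the gene. The RS4;11 peaks were 412 to 1001 bp wide, and those of THP-1 cells 405 to 2532 bp. The widest THP-1 peak of RBM47 had its center 76386 bp from the 5′ end. RBMS1, a binder of single-stranded DNA and RNA, followed with 5 and 9 peaks. Its RS4;11 peak of 3177 bp at 86811 bp from the start was wider than its promoter peak of 2521 bp, and the THP-1 peak at that place was 2388 bp wide. RBMS2 had 3 and 6 peaks, SRSF10 3 and 6, and RBMS3 4 and 5. RBM33 had 5 in both lines, RBM20 5 and 4, and RBM6 4 and 5. RBM22 had 2 in each line, at its start and 28633 bp (RS4;11) or 28525 bp (THP-1) downstream of it, outside the gene.

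**Figure D5:**
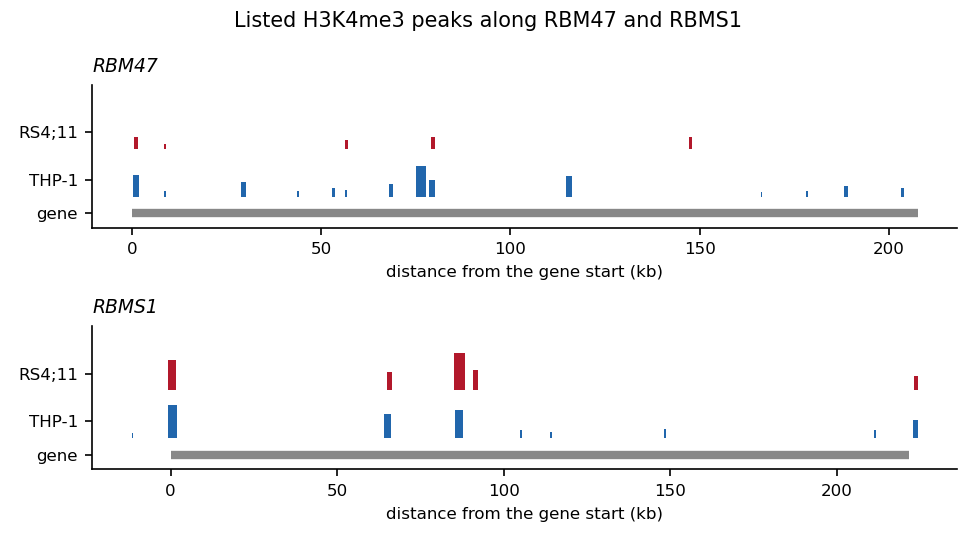
Listed H3K4me3 peaks along RBM47 and RBMS1, by distance in kb from the gene start, in RS4;11 (red) and THP-1 cells (blue). Each bar's width and height both show the peak width, the gray bar is the gene, and RBM47 has 5 peaks in RS4;11 and 14 in THP-1 cells.

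The upstream 250 bases of the 56 genes had a median GC content of 59.6% (35.2% to 82.8%), the same as the median over 20132 protein-coding promoters. The median CpG observed to expected ratio was 0.78, against 0.66. Each motif was sought on both strands as exact letters. GGGCGG was found in 30 of 56 (53.6%, against 48.8% of all protein-coding promoters), CCAAT in 24 (42.9%, against 33.1%) and CGGAAG in 12 (21.4%, against 17.6%). GCATGC was found in 3 (5.36%, against 6.32%) and CACGTG in 2 (3.57%, against 7.17%). The low end of GC content was SRSF8, at 35.2%, which had the widest RS4;11 promoter peak, and the high end RBM38, at 82.8%, with peaks of 2242 and 1687 bp.

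Other splicing genes were compared from lists of 68 genes. Of these, 48 had a promoter peak in RS4;11 and 45 in THP-1 cells, with 41 in both. The shares of all protein-coding genes were 49.2%, 55.3% and 43.4%. Among the 68 genes, those with such a peak had median widths of 2748 and 2737 bp. Of the 17 genes of the activated spliceosome, where RBM22 acts, 14 and 15 had a promoter peak, with median widths of 2447 and 2737 bp. RBM22 with 2626 and 2747 bp lay close to both. PRPF19, a ubiquitin ligase of that complex, measured 2964 and 3017 bp, and XAB2 2779 and 2729 bp. All 4 exon junction genes outside the RBM family had a peak in both lines, as did RBM8A, their partner Y14, with 2646 and 2884 bp. Of 8 hnRNP genes only 2 had one in RS4;11 and 2 in THP-1 cells, with 1, HNRNPM, in both. Of 18 U1, U2, U2AF and SF3 genes, 15 had one in RS4;11 and 10 in THP-1 cells. SF3B1, with 4381 bp, and SNRPA, with 4095 bp, were among those with one in RS4;11 cells only. WDR5 peaks were listed at 4 of the 68 in RS4;11 cells, EIF4A3, CASC3, U2AF2 and CRNKL1, and at 0 in THP-1 cells. Of all symbols in the peak lists, 4.70% had a WDR5 peak in RS4;11 and 1.70% in THP-1 cells.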

How the data were processed

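WDR5 and H3K4me3 ChIP-seq of RS4;11 and THP-1 cells was analysed, with 1 sample each. The authors fragmented chromatin by sonication (WDR5) or micrococcal nuclease (H3K4me3), aligned reads to hg19 with Eland, kept reads with 1 alignment, ran MACS with default settings and joined peaks to transcripts within 20 kb. The submitters' processing notes name CASAVA 1.7 and 1.8.2. The MACS version and any control are not given in the sources used here. The deposited files hold peak positions and annotation flags, with no counts or scores. Reads that align to several places were not kept, and their part at near-identical gene copies was not tested.

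Lines were reduced to distinct peaks and set against protein-coding genes of GENCODE release 44 mapped to GRCh37. A promoter peak shared at least 1 bp with the window, and the widest one gave the width. WDR5 listing followed the authors' lines. The 4 RS4;11 and 6 THP-1 WDR5 peaks on unplaced contigs were left out of sequence measures. Members, gene lists and measures were chosen with earlier results of these data known. Named were genes with a WDR5 peak, with a promoter peak in 1 line or none, or at either end of width, number or difference between lines. Alternatives changed the TSS, window, overlap, listing and width. Window functions were tested on simulated peaks. Python 3.11.15, numpy 2.4.6 and scipy 1.17.1 were used.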

Additional observations from a re-analysis of the deposited data

How the results depend on the processing

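Promoter counts kept within 1.5 times under every alternative but one. When the peak center had to lie in the window, the counts were 22 for RS4;11, 22 for THP-1 and 17 for both lines. With WDR5 peaks in the gene body or within 5000 bp 4 members counted in RS4;11 cells, and with the promoter window 2. With H3K4me3 peaks in the gene body or within 5000 bp, 19 genes had 2 or more in each line. Median widths stayed within the 95% order-statistic interval of the main median under all 3 width settings in each line. That interval, over genes of 1 sample, was 2443 to 3233 bp in RS4;11 and 2044 to 3111 bp in THP-1 cells. Summing widths in the window could not change a value, because no member had more than 1 peak there in a line. The count wider in RS4;11 cells was 17 or 19. The count with symbols as written and the count that asked the peaks of both lines to share a base were chosen after seeing the data. No paired analysis was possible because the groups have 1 sample each, so no replicate could be left out either. Depth and peak strength are unknown.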
